A study of Mus musculus with 24 samples.

Results

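Embryos of Nlrp14 knockout mice that had reached the 2-cell stage were compared with wild-type zygotes 1 stage earlier, at pronuclear stage 5 (PN5), the last pronuclear stage before the first cleavage. The 6 libraries, 3 knockout 2-cell and 3 wild-type PN5, were chosen by genotype and stage from the 24 of the series, whose title concerns female infertility and arrest of the early embryo. The other libraries are wild-type and knockout germinal vesicle (GV) oocytes, metaphase II (MII) eggs, knockout PN5 zygotes and wild-type 2-cell embryos, again 3 per group. The question is how far the knockout 2-cell embryo had moved beyond a normal zygote, and whether it stood part of the way along the normal path or at levels of its own.

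Each library was made from the pooled RNA of 5 zygotes or embryos with SMART-Seq HT, a method that copies full-length messenger RNA and amplifies it by PCR. The wild-type groups carry the label WT and the knockout groups the genotype Nlrp14 knockout, with the letters HO in their titles. Which stretch of the gene was deleted, the strain, the age of the females, the genotype of the males and the hour of collection are not given in the sources used here. Genotype and stage both differ between the 2 groups and cannot be told apart in their difference, so wild-type 2-cell levels are given beside many of the results. Levels are FPKM (fragments scaled to transcript length and to the mapped fragments of the library). Differences are on the log2(FPKM + 1) scale, knockout 2-cell minus wild-type PN5 unless another pair is named, a scale on which changes of weakly expressed genes come out too small. The labels call the 3 libraries of a group biological replicates, and the p-values reflect only the variation among those 3. Since FPKM is relative to the library, fewer transcripts of a gene per embryo and more RNA from other genes cannot be told apart.

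A mouse egg carries a store of messenger RNA made during oocyte growth, and its own genome is silent at fertilisation. Transcription begins weakly in the zygote and strongly in the 2-cell embryo, the major wave of genome activation, while the maternal store is deadenylated and destroyed. The 2-cell embryo briefly expresses families such as Zscan4 and Usp17l, then turns on ribosome and other growth genes. NLRP14 belongs to the NLR family of proteins with leucine-rich repeats and is made in the oocyte.

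Nlrp14 itself, which lies on chromosome 7 of GRCm38 (107166990 to 107198102, + strand), measured 169, 243 and 217 FPKM in wild-type PN5 zygotes against 25.9, 36.2 and 17.2 FPKM in knockout 2-cell embryos. The groups did not overlap, and the difference was -2.99 (SE 0.29, limma, adjusted p = 0.00011). The level in knockout 2-cell embryos was also below that of wild-type 2-cell embryos, at 90.2, 129 and 99 FPKM, but not at 0.

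Depth implied by the steps of the FPKM values was 7.79 to 11.2 M fragments in the 6 libraries. Replicate 1 of the wild-type PN5 group stood apart from the other zygote libraries. Mitochondrial transcripts made 21.8% of its summed FPKM, against 11.8 and 8.3% in replicates 2 and 3 and 21.7 to 22.9% in the knockout 2-cell libraries. Counts without it are given where they moved most. The germ line markers Gdf9 and H1foo were present in all 6 libraries, and a minority of the markers of other cells were listed at 0 in all 6. These were 5 of 24 granulosa and cumulus, 3 of 18 sperm and 7 of 15 blood, stroma and oviduct markers. Of 24 granulosa and cumulus markers, Amh, Fshr, Inha, Inhbb and Wt1 were listed at 0 in all 6 libraries, and 4 were tested. Cyp19a1 and Serpine2 were lower and Tnfaip6 higher, with a summed level of 58.3 to 96.3 FPKM in wild-type PN5 and 22.4 to 35.3 FPKM in knockout 2-cell libraries. Of the blood, stroma and oviduct markers, Col1a1, Foxj1 and Hbb-bs were listed at 0 in all 6, while the haemoglobin genes Hba-a1 and Hba-a2, Cd74 and Epcam were higher in knockout 2-cell embryos. The 15 markers together summed to 3.44 to 6.93 FPKM in wild-type PN5, 33.4 to 48.1 FPKM in knockout 2-cell and 129 to 242 FPKM in wild-type 2-cell libraries. Of 18 sperm markers, Tnp2 and Acr were listed at 0 in all 6 libraries, and Pgk2 and Odf1 were higher in the knockout 2-cell group. The 18 together summed to 11.5 to 12.4 FPKM in wild-type PN5 and 30.6 to 36.2 FPKM in knockout 2-cell libraries. In wild-type 2-cell libraries they summed to 40 to 47.4 FPKM. The part of these markers in the results below was not tested.

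Genes called higher in the knockout 2-cell embryo outnumbered those called lower, and many of them were near 0 in the zygote. Of 11314 genes tested, 3302 were higher (29.2%) and 1438 lower (12.7%) in knockout 2-cell embryos than in wild-type PN5 zygotes (limma on 6 libraries, adjusted p under 0.05). Of the genes that were higher, 3283 had every knockout 2-cell library above every PN5 library, and 2690 differed by at least 2-fold on the log2(FPKM + 1) scale. Of those that were lower, 1427 did not overlap and 1079 differed by at least 2-fold. Separation was common among all 11314 genes tested, called or not. In 4194 of them every knockout 2-cell library was above every PN5 library, and in 1907 every one was below. The median PN5 level of the higher genes was 0.853 FPKM, and 1767 of them had a PN5 mean under 1 FPKM. Of the higher genes, 1456 had no PN5 library at 1 FPKM, so they passed the filter on low values through the knockout libraries alone. Only 1530 tested genes were of this kind, and 0 of them were lower, so a higher call was nearly fixed by the filter. Of the lower genes, 147 had no knockout 2-cell library at 1 FPKM. Among the 6764 genes with at least 1 FPKM in all 6 libraries, 1267 were higher and 1091 lower. The lower genes started from a median of 14.4 FPKM.

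The share of calls that were higher also moved with the scaling. It was 69.7% as deposited, 59.5% (2775 higher, 1891 lower) after median-of-ratios scaling, 57.5% as TPM, and 53.8 and 54.2% with the trends on transcript length or GC content removed. The median difference of all genes tested was 0.26 as deposited and 0.08 after median-of-ratios scaling. Without wild-type PN5 replicate 1, 3488 genes were higher and 2106 lower. Without PN5 replicate 2 the lower genes numbered 881, and without knockout 2-cell replicate 1 they numbered 946.

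**Figure D1:**
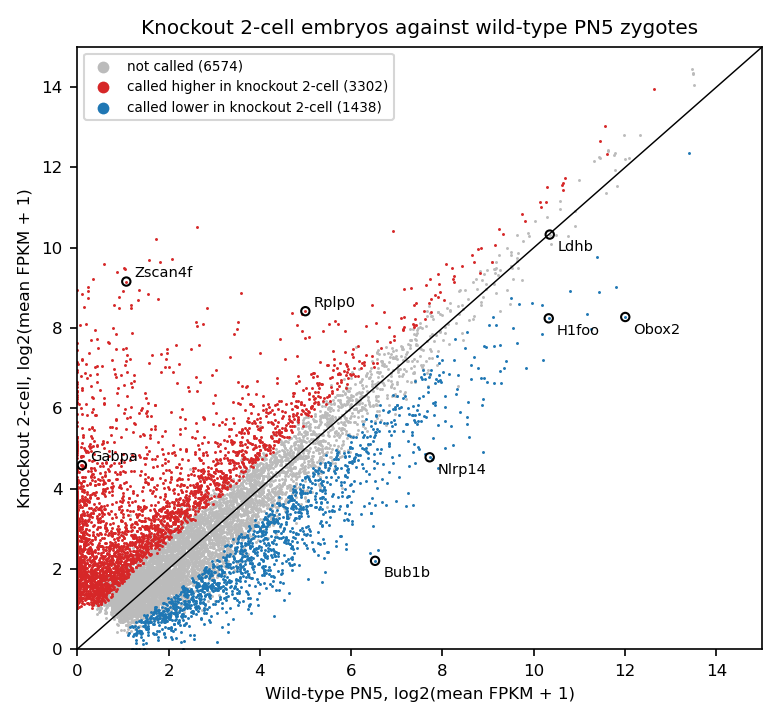
Mean level of each of the 11314 tested genes in wild-type PN5 zygotes (horizontal) and knockout 2-cell embryos (vertical), as log2(mean FPKM + 1), 3 libraries per group; the line marks equal levels and rings mark 8 genes named in the text. Genes called higher (3302, red) fan out above the line mainly from low PN5 levels, and genes called lower (1438, blue) lie below it.

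Predicted genes, Rik genes and pseudogenes apart, the 12 genes named for the largest rises were at or near 0 in most zygote libraries, and most belong to families that mark the 2-cell embryo. The predicted gene Gm8300, described with the 2-cell-specific genes, differed by more than any of the 12, at 8.52. Zscan4f, a zinc-finger gene of that stage, measured 2.21, 0.787 and 0.318 FPKM in PN5 zygotes against 799, 448 and 462 FPKM in knockout 2-cell embryos. All knockout 2-cell values were far above all PN5 values, with a difference of 8.13 (SE 0.38, limma, adjusted p = 3.1e-06). Its relatives Zscan4c and Zscan4d, with Pramef25, Usp17lb, Zscan4b, AF067061, AF067063 and D13Ertd608e, also rose, by 6.14 to 7.39. Rfpl4b was listed at 0 in the 3 PN5 libraries and stood at 123, 82.6 and 90.8 FPKM in knockout 2-cell embryos. Mt1, a metallothionein that binds zinc, went from 6.12, 0.24 and 0 FPKM to 189.8, 126 and 167 FPKM, with the highest PN5 value in replicate 1. Prps1, which makes the ribose phosphate donor of nucleotide synthesis, went from 2.3, 0.799 and 0.0859 FPKM to 183, 82.6 and 140.4 FPKM.

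The 12 genes named for the largest falls, under the same limits, included some of the more abundant messages of the zygote. Bub1b, the spindle checkpoint kinase BubR1, fell from 65.8, 81.8 and 125 FPKM in PN5 zygotes to 3.92, 2.97 and 3.88 FPKM in knockout 2-cell embryos. The difference was -4.28 (SE 0.28, limma, adjusted p = 1.6e-05), and wild-type 2-cell embryos held 7.48, 4.07 and 5.3 FPKM. Obox2, an oocyte homeobox gene, fell from 6084, 3569 and 2669 FPKM to 253, 334 and 339 FPKM. Rgs2, a regulator of G-protein signalling, Txnip, which binds thioredoxin, Cept1, an enzyme of phospholipid synthesis, and the splicing regulator Nsrp1 fell by 3.68 to 3.96 on the log2 scale. Pfdn4, Edrf1, Zfp449, the nucleoporin Nup93, Speer4f2 and the oligoadenylate synthetase relative Oas1d fell by 3.32 to 3.43.

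To place the embryo along the normal path, 3900 activation genes and 1532 cleared genes were defined from libraries outside the comparison, wild-type MII eggs and wild-type 2-cell embryos (29.1% and 11.4% of 13386 genes tested, limma adjusted p under 0.05, at least 2-fold, with 5 FPKM or more in the higher group). Of the 3406 activation genes tested, 2164 were higher in knockout 2-cell embryos than in wild-type zygotes, 29 were lower and 1213 did not pass (limma). Their median difference was 1.19, beside 0.26 for all genes tested. This count and median, like those of the lists below, include genes that passed the filter through the knockout libraries alone. Of 1517 cleared genes tested, 801 were lower, 12 higher and 704 did not pass, with a median of -0.98. After median-of-ratios scaling the counts were 1916 activation genes higher and 954 cleared genes lower, and without wild-type PN5 replicate 1 they were 2245 and 1059. Across 10466 genes the difference from PN5 to knockout 2-cell and the wild-type difference from MII to 2-cell, which share no library, had a Pearson r of 0.82 and a Spearman rho of 0.80, given as a description over genes that are not independent.

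Levels put the knockout 2-cell embryos beyond every zygote group and short of wild-type 2-cell embryos on both lists. The median activation gene stood at 0.996 FPKM in wild-type MII eggs, 1.58 FPKM in wild-type PN5, 1.18 FPKM in knockout PN5, 6.21 FPKM in knockout 2-cell and 15.3 FPKM in wild-type 2-cell embryos. The median cleared gene stood at 22.7, 17.0, 19.9, 7.41 and 5.35 FPKM in the same groups. As means of log2(FPKM + 1) per library, activation genes lay at 1.73 to 1.77 in wild-type PN5, 3.07 to 3.33 in knockout 2-cell and 4.27 to 4.51 in wild-type 2-cell libraries, with no overlap between groups. Cleared genes lay at 4.12 to 4.72, 3.29 to 3.48 and 2.92 to 3.11. The list was defined in part by wild-type 2-cell libraries, so their own place on it is fixed by the definition. Activation genes lay at 2.76 to 2.78 in wild-type GV oocytes, above the 1.42 to 1.45 of wild-type MII eggs. The list therefore includes messages that were present before maturation and lower in the egg. How much of the rise in knockout 2-cell embryos was new transcription was not tested.

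**Figure D2:**
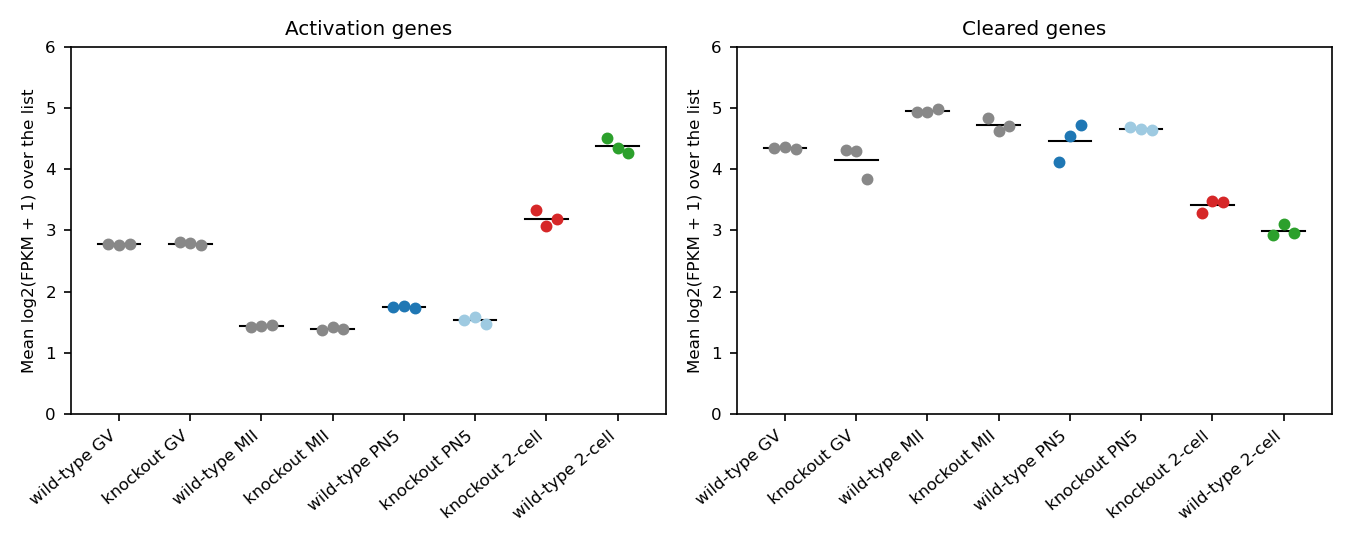
Mean log2(FPKM + 1) over the activation genes (left) and cleared genes (right) in each of the 24 libraries; points are libraries, bars are group means. The 3 knockout 2-cell libraries (red) lie at 3.07 to 3.33 for activation genes and at 3.29 to 3.48 for cleared genes, between the PN5 libraries and the wild-type 2-cell libraries.

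Over 16427 genes, a knockout 2-cell library differed from a wild-type PN5 library by a mean absolute log2 difference of 0.84 to 1.01 over the 9 pairs (median 0.91). It differed from a wild-type 2-cell library by 0.82 to 1.07 (median 0.89), and wild-type 2-cell from wild-type PN5 libraries by 1.27 to 1.44 (median 1.32). The ranges of the first 2 comparisons overlap. Libraries within the knockout 2-cell group differed by 0.38 to 0.41. The distance to knockout PN5 zygotes was 0.95 to 1.11 (median 1.02). Median-of-ratios scaling gave medians of 0.89 to wild-type PN5 and 0.85 to wild-type 2-cell libraries.

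Each of 14556 genes was then placed against both wild-type groups in a fit of 9 libraries. Against wild-type 2-cell embryos alone, 1865 genes were higher (12.8%) and 5458 lower (37.5%) in the knockout. A gene counted as between, or as outside, when the knockout 2-cell level differed from both groups (limma, adjusted p under 0.05 for the larger of both p-values). Between the groups lay 1313 genes above PN5 (9.02%) and 111 below it (0.763%). Above both lay 440 genes (3.02%) and below both 305 (2.1%), but as TPM 217 lay above and 301 below, and with a pseudocount of 0.1 313 and 330, and with array weights 786 and 831. A gene counted as at the PN5 level when the 95% interval of its difference from PN5 lay within 2-fold in either direction and it differed from wild-type 2-cell embryos. This held for 1823 genes that were higher in wild-type 2-cell embryos (12.5%), of which 1056 had both means under 1 FPKM, and for 553 that were lower (3.8%). With a pseudocount of 0.1 these counts were 328 and 349, and they were 259 and 62 with an interval bound of 1.5-fold. For the 1056 genes with both means under 1 FPKM the rule was close to met in advance on the log2(FPKM + 1) scale. The remaining 10011 genes were in none of these classes. Without wild-type PN5 replicate 1, 480 genes were below both. Without each other library in turn, genes below both numbered as few as 161 (without knockout replicate 1), genes between and below PN5 41 (without knockout replicate 3), genes above both 242 (without knockout replicate 1), genes between and above PN5 835 (without knockout replicate 3) and genes at the PN5 level and lower in wild-type 2-cell embryos 325 (without knockout replicate 2).

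Transcript length, gene type and the level in the egg, which did not define the classes, are given as descriptions with no test. Genes called higher in the 6-library comparison had a median exon length of 1484.5 nt and genes called lower 3496 nt. Genes above both had a median exon length of 1404 nt, genes between and above PN5 1762.5 nt, genes at the PN5 level and higher in wild-type 2-cell embryos 3688 nt and genes below both 3795 nt, beside 2488 nt for all genes tested. Library-wide length trends moved with this order. They were taken on log2(FPKM + 1) relative to each gene's mean over the PN5 and 2-cell libraries of both genotypes. Relative to that mean, levels fell with length in the knockout 2-cell libraries (slopes of -0.14 to -0.10 log2 units per doubling of length). They rose with it in wild-type PN5 replicates 2 and 3 (0.07 and 0.13), with -0.02 in PN5 replicate 1. With the length trend removed, 457 genes were above both and 244 below both, and 641 lay between and above PN5. Of the genes below both, 98.7% had at least 1 FPKM in wild-type MII eggs, with a median of 15.9 FPKM. Genes between and above PN5 had a median of 0.27 FPKM there, and 27.1% reached 1 FPKM. Of the genes above both, 52% were annotated as protein coding, against 67.4% of all genes tested.

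**Figure D3:**
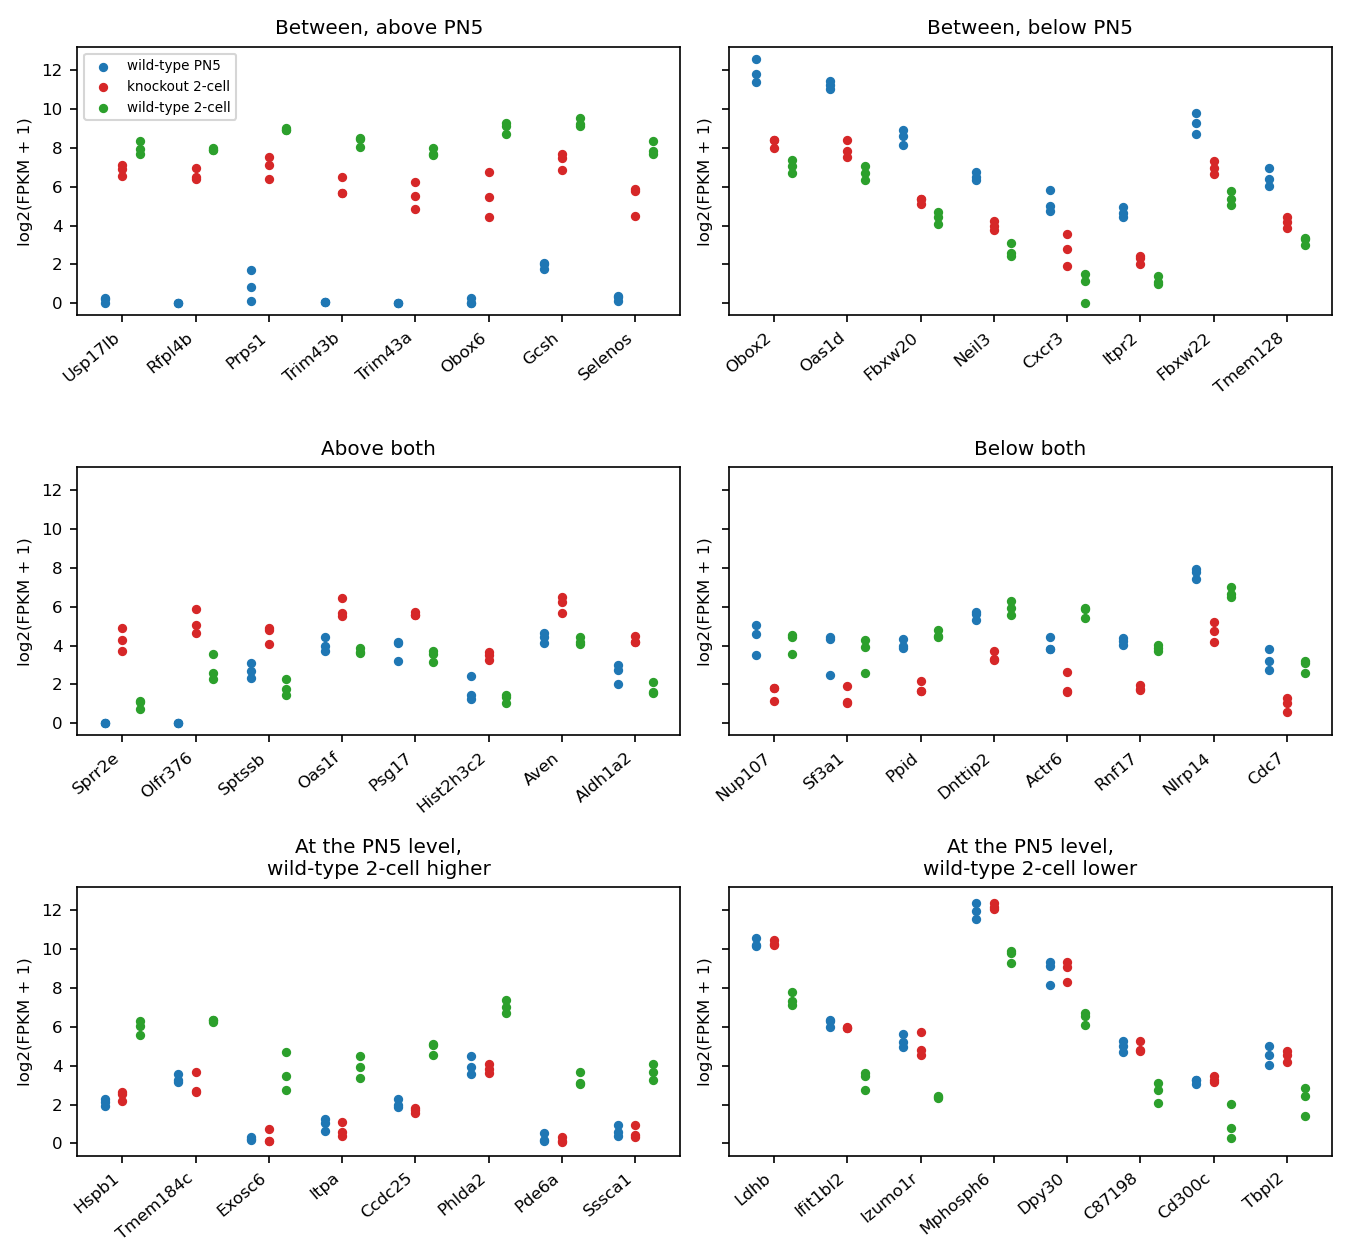
Level of the 8 named genes of each class in each library of wild-type PN5 zygotes (blue), knockout 2-cell embryos (red) and wild-type 2-cell embryos (green), as log2(FPKM + 1); each point is a library. Knockout 2-cell points sit between the other groups in the top panels, outside both in the middle panels and beside the PN5 points in the bottom panels.

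Genes named for the between class were part of the way to the wild-type 2-cell level. Obox6, a homeobox gene of the 2-cell embryo, stood at 0, 0 and 0.209 FPKM in PN5 and 106, 21.1 and 44 FPKM in knockout 2-cell libraries. In wild-type 2-cell embryos it stood at 615, 554 and 427 FPKM, above every knockout library, and the knockout differed from it by -3.48. Trim43b, a tripartite-motif gene, reached 88.6, 50.2 and 49.8 FPKM against 369, 348 and 265 FPKM in wild type. Gcsh, the lipoyl carrier of the glycine cleavage system, reached 203, 114 and 175 FPKM, against 3.24, 2.39 and 3 FPKM in PN5 and 733, 569 and 600.3 FPKM in wild-type 2-cell embryos. Selenos, a selenoprotein of the endoplasmic reticulum, Trim43a, Prps1, Usp17lb and Rfpl4b were placed likewise. On the way down, Neil3, a DNA glycosylase, stood at 109, 88.9 and 81.8 FPKM in PN5, 12.7, 14.5 and 17.8 FPKM in knockout 2-cell and 4.39, 7.56 and 4.96 FPKM in wild-type 2-cell embryos. Itpr2, a calcium channel of the endoplasmic reticulum, stood at 23.9, 29.8 and 21.1 FPKM in PN5, 3.01, 4.36 and 3.94 FPKM in knockout 2-cell and 1.17, 1.69 and 0.964 FPKM in wild-type 2-cell embryos. Fbxw20 and Fbxw22, F-box genes, with Cxcr3, Tmem128, Obox2 and Oas1d, completed the named set.

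Genes above both wild-type groups were higher in knockout 2-cell embryos than at either end of the normal step. Sprr2e, a small proline-rich protein gene, was listed at 0 in the PN5 libraries, at 29.5, 18.6 and 12.2 FPKM in knockout 2-cell and at 1.11, 0.637 and 1.21 FPKM in wild-type 2-cell libraries. Aven, an inhibitor of apoptosis, stood at 20.8, 23.7 and 16.4 FPKM in PN5, 74.7, 88.4 and 49.8 FPKM in knockout 2-cell and 15.8, 17.2 and 20.6 FPKM in wild-type 2-cell embryos. Knockout 2-cell values of Aven lay above all others, by 1.73 over PN5 and 1.90 over wild-type 2-cell embryos (limma, adjusted p for both = 0.0021). Aldh1a2, which makes retinoic acid, stood at 3.01, 7.06 and 5.62 FPKM in PN5, 17.2, 21.8 and 17.5 FPKM in knockout 2-cell and 2.02, 1.96 and 3.41 FPKM in wild-type 2-cell embryos. Psg17, of the pregnancy-specific glycoproteins, stood at 8.27, 16.4 and 17 FPKM in PN5, 47.4, 52.3 and 46.6 FPKM in knockout 2-cell and 11, 12.1 and 7.97 FPKM in wild-type 2-cell embryos. In Aven, Aldh1a2 and Psg17 the PN5 and wild-type 2-cell values overlapped. Olfr376, an olfactory receptor gene, Sptssb, a subunit of serine palmitoyltransferase, Oas1f and the histone H3 gene Hist2h3c2 were also above both. The class does not compare with earlier stages. Knockout 2-cell means of Aven, Aldh1a2, Oas1f and Sptssb were 71, 18.8, 61.1 and 23.7 FPKM. Their wild-type GV oocyte means were higher, at 122, 40, 74.3 and 26.3 FPKM. Psg17, Hist2h3c2, Olfr376 and Sprr2e had lower GV means, at 21.6, 1.36, 0.015 and 0 FPKM.

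The 8 genes named below both were lower in knockout 2-cell embryos than in both wild-type groups. Nup107, a nucleoporin, stood at 10.3, 23.2 and 31.9 FPKM in PN5, 2.58, 1.21 and 2.55 FPKM in knockout 2-cell and 22.6, 20.6 and 11 FPKM in wild-type 2-cell libraries. Its difference was -2.77 from PN5 and -2.59 from wild-type 2-cell embryos (limma, adjusted p for both = 0.003). Actr6, an actin-related protein of a chromatin remodeller, stood at 20.7, 13 and 13.1 FPKM in PN5, 2.02, 5.17 and 2.18 FPKM in knockout 2-cell and 59.4, 42.2 and 58.9 FPKM in wild-type 2-cell embryos. Cdc7, the kinase that fires replication origins, stood at 5.73, 8.31 and 13.2 FPKM in PN5, 0.481, 1.1 and 1.49 FPKM in knockout 2-cell and 7.61, 8.33 and 5.11 FPKM in wild-type 2-cell embryos. In each of these genes the wild-type groups were on the same side of the knockout 2-cell libraries. Ppid, a cyclophilin, Dnttip2, a factor of ribosomal RNA processing, Rnf17, a tudor-domain protein, Sf3a1, of the U2 spliceosomal particle, and Nlrp14 were placed likewise.

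At the PN5 level stayed messages that wild-type 2-cell embryos had gained or lost. Hspb1, a small heat shock protein, stood at 2.83, 3.8 and 3.31 FPKM in PN5 and 3.56, 4.83 and 5.31 FPKM in knockout 2-cell embryos (95% interval of the difference -0.20 to 0.92 in the 9-library fit), against 78.7, 46.9 and 66 FPKM in wild-type 2-cell embryos. Phlda2, an imprinted gene that limits growth of the placenta, stood at 11, 14.5 and 21.4 FPKM in PN5, 11.2, 16.1 and 13 FPKM in knockout 2-cell and 163, 103 and 127 FPKM in wild-type 2-cell embryos (interval -0.78 to 0.45). Tmem184c and Ccdc25 were placed likewise. So were Itpa, which clears inosine triphosphate, Exosc6, Pde6a and Sssca1, all with PN5 and knockout 2-cell means under 1 FPKM. For the last 4 the interval rule shows little, since such low means lie within 2-fold on the log2(FPKM + 1) scale in any case. The symbol Sssca1 belongs to 2 gene models of the annotation, and the model on chromosome 19 is the one given. Ldhb, a lactate dehydrogenase subunit, stood at 1158, 1550 and 1204 FPKM in PN5 and 1197, 1427 and 1226 FPKM in knockout 2-cell embryos, a difference of -0.02 (interval -0.51 to 0.48). Wild-type 2-cell embryos had 139, 222 and 162 FPKM of Ldhb. Izumo1r, the egg receptor for sperm Izumo1, stood at 36, 48.5 and 29.9 FPKM in PN5, 22.6, 51.5 and 27.3 FPKM in knockout 2-cell and 3.97, 4.3 and 4.49 FPKM in wild-type 2-cell embryos. Mphosph6, an RNA exosome cofactor, Dpy30, of histone H3 methyltransferase complexes, Tbpl2, the oocyte's TBP relative, Ifit1bl2, Cd300c and the long noncoding RNA C87198 were also at the PN5 level.

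Lists of genes with known roles were then read in the same way, each beside the background of 29.2% higher and 12.7% lower. The lists were chosen with earlier results of these data known, and members named beyond the 4 with the smallest p were chosen after their values were seen. The 2-cell-specific genes had the largest median difference of the 24 lists. Of 38 tested, 33 were higher, 1 was lower and 4 did not pass (median difference 4.81, limma). Only 12 of the 41 listed had a PN5 mean of at least 1 FPKM. Members that passed the filter through the knockout libraries alone were nearly bound to be called higher, so the background of 29.2% is no fair measure for this count. Against wild-type 2-cell embryos, 9 of 39 were higher in the knockout, 12 lower and 18 not called. Gm8300 stood at 0.526, 0 and 0 FPKM in PN5, 573, 352 and 368 FPKM in knockout 2-cell and 245, 134 and 218 FPKM in wild-type 2-cell embryos. The 6 members above both wild-type groups were Gm8300, AF067061, Ddit4l, BC061212, Tdpoz3 and Zfp51. Members between the groups were Obox3, Obox6, Trim43a, Trim43b, Trim43c, Tdpoz1, Tdpoz4 and Usp17lb. Zscan4f was at 446, 234 and 355 FPKM in wild-type 2-cell embryos, all below the knockout values, but the difference of 0.72 did not pass the test (95% interval -0.10 to 1.53, limma, adjusted p = 0.13). Pramef12 was the member that fell, from 54.9 to 13.2 FPKM as group means. Duxf3, the Dux gene that drives this set, had a mean of 0.0707 FPKM in knockout 2-cell embryos and was not tested. The Zscan4, Usp17l, Trim43, Tdpoz and Pramef genes have near-identical copies, so the division of reads between copies is uncertain.

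Promoter stretches of 100 bases before the start are shown for a 2-cell gene pair that passed the wild-type 2-cell mean, a ribosomal protein gene whose values overlapped the wild-type 2-cell group and a gene that stayed at the PN5 level. Capitals mark matches to the letters CCAAT, to the GC box letters GGGCGG and to the TATA box letters TATAAA, searched on both strands, with no overlap between matches. The sequences are from RefSeq (GRCm38.p6), 5′ to 3′ on the strand of the gene, and lie at chr7:11005645-11005744 (+) for Zscan4c, chr7:11397815-11397914 (+) for Zscan4f, chr5:115559367-115559466 (+) for Rplp0 and chr5:135887819-135887918 (+) for Hspb1.
Zscan4c: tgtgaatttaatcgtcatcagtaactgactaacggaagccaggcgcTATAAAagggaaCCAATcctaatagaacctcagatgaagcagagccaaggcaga
Zscan4f: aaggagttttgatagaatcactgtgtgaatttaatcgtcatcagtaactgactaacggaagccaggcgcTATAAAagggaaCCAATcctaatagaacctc
Rplp0: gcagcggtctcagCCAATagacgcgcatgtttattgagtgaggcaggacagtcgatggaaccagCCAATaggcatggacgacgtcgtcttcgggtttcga
Hspb1: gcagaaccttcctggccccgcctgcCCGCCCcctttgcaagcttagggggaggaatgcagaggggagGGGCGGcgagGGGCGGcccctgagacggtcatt
Both Zscan4 stretches hold TATAAA followed by CCAAT at the same spacing, Rplp0 holds CCAAT 2 times and Hspb1 holds 3 matches to GGGCGG. Of the 32851 promoters in the table, 18.9% hold CCAAT, 24.7% GGGCGG and 5.56% TATAAA in this window. Promoters were matched for 57.1% of the genes tested in the 3 groups, so shares per class were void and are not given.

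Genome activation transcription factors split. Of 29 tested, 11 were higher, 6 lower and 12 did not pass (median 0.27), and 9 of the 31 in the 9-library fit lay between PN5 and wild-type 2-cell levels on the way up. Gabpa, an ETS-family activator, stood at 0.111, 0.105 and 0 FPKM in PN5, 23.5, 17.2 and 28.2 FPKM in knockout 2-cell and 139.9, 104 and 92.1 FPKM in wild-type 2-cell libraries. Obox8 was listed at 0 in the PN5 libraries and stood at 34.2, 17.8 and 12.7 FPKM against 298, 216 and 206 FPKM in wild type. Klf5, a Krüppel-like factor, stood at 0.151, 0.0204 and 0.193 FPKM in PN5, 6.73, 5.22 and 5.41 FPKM in knockout 2-cell and 23.1, 24.1 and 16 FPKM in wild-type 2-cell embryos. None of the knockout values of these 3 genes overlapped either wild-type group. Dppa4, Dppa2, Klf4 and Yy1 were also between. The maternal homeobox genes Obox1, Obox2 and Obox7 were the ones on the way down between the groups. Nfyb, a subunit of the factor that binds CCAAT, stayed at the PN5 level, with means of 1.44 and 1.31 FPKM against 13.2 FPKM in wild-type 2-cell embryos. Smarca4, Sox2 and Tead4 were also at the PN5 level and higher in wild-type 2-cell embryos.

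Most ribosomal protein genes were higher than in the zygote and lower than in wild-type 2-cell embryos. Of 66 tested, 52 were higher in knockout 2-cell embryos than in zygotes, 0 were lower and 14 did not pass, with a median of 1.29. A PN5 mean of at least 1 FPKM was reached by 38 of the 79 listed, so the filter favoured higher calls here too. At an unadjusted p under 0.05, 55 were higher and 0 lower (limma). After median-of-ratios scaling, 48 were higher and 1 lower, and with the length trend removed 39 and 3. Of 76 in the 9-library fit, 59 were below wild-type 2-cell embryos, 0 were above (1 at an unadjusted p under 0.05) and 45 lay between. Rplp0, of the ribosomal stalk, stood at 24.7, 33.8 and 34.3 FPKM in PN5 and 402, 269 and 352 FPKM in knockout 2-cell libraries, beside 469, 433 and 356 FPKM in wild-type 2-cell embryos. Its difference from the latter was -0.31 (95% interval -0.80 to 0.19). Rps26 stood at 0.35, 0.584 and 0.502 FPKM in PN5, 16.3, 11.8 and 16.5 FPKM in knockout 2-cell and 46.1, 33.8 and 52.2 FPKM in wild-type 2-cell embryos, and Rps3 at 0.289, 0.368 and 0.374 FPKM in PN5, 6.83, 5.96 and 6.27 FPKM in knockout 2-cell and 28.7, 19.5 and 21.9 FPKM in wild-type 2-cell embryos. The 3 groups of Rps26 and of Rps3 did not overlap. Rpl41 rose from 2.12 to 25.8 FPKM as means. In wild-type GV oocytes Rplp0, Rps26, Rps3 and Rpl41 had means of 127, 16.2, 9.92 and 28.5 FPKM. Wild-type MII means were 17.7, 0.207, 0.375 and 3.75 FPKM, so these messages had already been lower in the egg than in the oocyte. The knockout 2-cell mean was above the GV mean in Rplp0 and below it in Rps26, Rps3 and Rpl41. Processed pseudogenes of many ribosomal protein genes are near-identical, so single values are uncertain where reads were divided between them.

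RNA polymerase I and ribosome assembly genes went both ways. Of 62 tested, 15 were higher, 15 lower and 32 did not pass, with a median of 0.05. Without wild-type PN5 replicate 1, 15 were higher and 20 lower. In the 9-library fit of 72 members, 67 were below wild-type 2-cell embryos and 0 above (0 at an unadjusted p under 0.05, limma). Of these members, 11 lay between, 9 below both and 16 at the PN5 level. Nop16, a nucleolar protein, stood at 0, 0.118 and 0 FPKM in PN5, 9.999, 5.25 and 6.48 FPKM in knockout 2-cell and 126, 99.8 and 79.4 FPKM in wild-type 2-cell libraries. Nhp2, of the H/ACA ribonucleoprotein, stood at 4.02, 4.45 and 2.76 FPKM in PN5, 30.1, 37.7 and 52.9 FPKM in knockout 2-cell and 193, 179.6 and 151 FPKM in wild-type 2-cell embryos, and Polr1c, a subunit of RNA polymerases I and III, at 1.92, 1.46 and 2.16 FPKM in PN5, 18.5, 15.3 and 17.2 FPKM in knockout 2-cell and 97.2, 58.3 and 67.3 FPKM in wild-type 2-cell embryos. Taf1d, of the polymerase I selectivity factor, rose by 2.61. The 9 below both were Brix1, Utp18, Gnl2, Wdr36, Taf1a, Utp4, Ddx10, Taf1b and Dkc1. Brix1, which assembles the large subunit, had means of 394, 105 and 261 FPKM, and Ddx21, a nucleolar helicase at the PN5 level, 1.75, 1.62 and 21.6 FPKM.

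**Figure D4:**
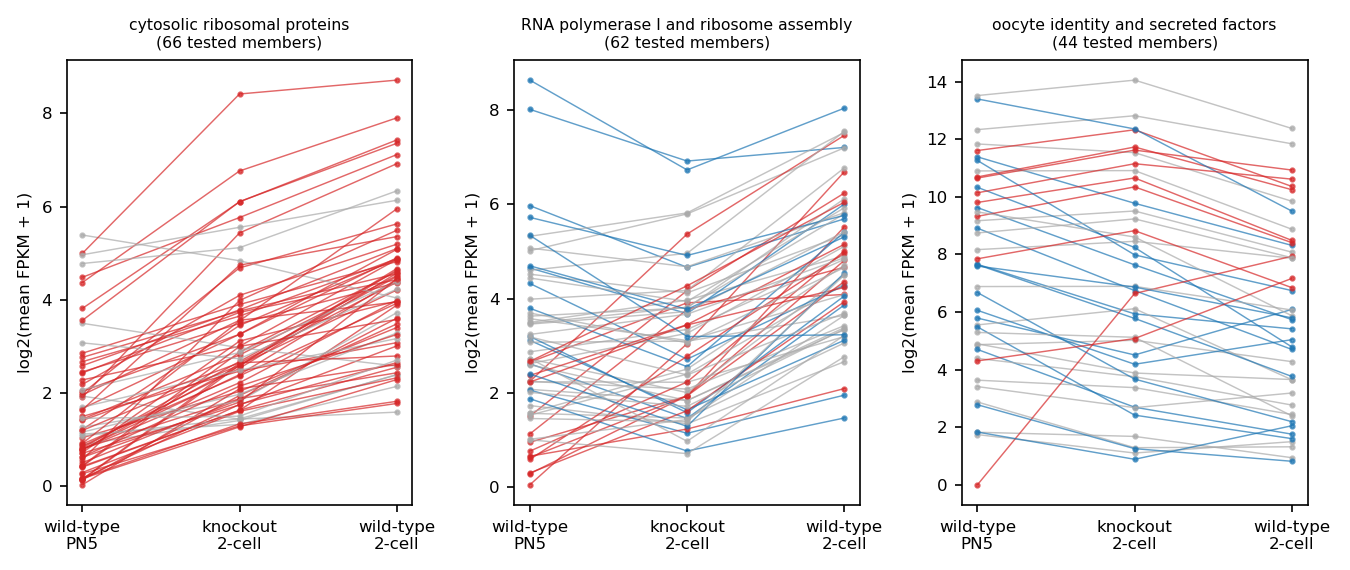
Mean level, as log2(mean FPKM + 1), of the tested members of 3 lists in wild-type PN5 zygotes, knockout 2-cell embryos and wild-type 2-cell embryos; each line is a gene, red where called higher and blue where called lower in knockout 2-cell than in PN5, grey where not called. Of 66 ribosomal protein genes 52 are red, ribosome assembly genes have 15 of each colour, and oocyte genes have 16 blue and 9 red lines.

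RNA polymerase II, splicing and translation initiation genes also went both ways. In the 9-library fit, 27 of 40 polymerase II, 26 of 49 spliceosome and 29 of 44 initiation genes were below wild-type 2-cell embryos. Those above numbered 4, 7 and 3. Of all genes in that fit, 37.5% were below and 12.8% above. Of 36 polymerase II subunit and initiation genes, 7 were higher and 6 lower (19.4% and 16.7%), beside 29.2% and 12.7% of all genes tested. These counts do not set the list apart. They were 5 and 7 after median-of-ratios scaling and 9 and 9 without wild-type PN5 replicate 1. Supt4a, an elongation factor subunit, stood at 36.9, 28.9 and 16.5 FPKM in PN5 and 113, 119 and 102 FPKM in knockout 2-cell embryos, and Gtf2b, the initiation factor TFIIB, fell from 199, 138 and 105 to 44.3, 45.1 and 54.1 FPKM. Mnat1, of TFIIH, fell by 1.83 and Polr2l rose by 1.81. Of 47 spliceosome genes, 11 were higher and 13 lower (23.4% and 27.7%). Snrpc, of the U1 particle, rose from 0.473, 0.836 and 0.359 to 32.3, 13.2 and 25.6 FPKM. The core protein Snrpd2 rose by 2.55, and Cdc5l and Lsm4 by 1.55 and 2.18. The 7 spliceosome genes below both wild-type groups were Sf3a1, Lsm5, Sf3b4, Plrg1, Sf3a3, Snrpa1 and Srsf5. Of 41 translation initiation genes, 11 were higher and 7 lower (26.8% and 17.1%), near the 29.2% and 12.7% of all genes tested. Eif4ebp1, which binds and blocks eIF4E, rose from 0.787, 0.998 and 0.822 to 6.86, 9.77 and 5.68 FPKM. Eif2b1 fell from 471, 494 and 469 to 168, 201 and 189.7 FPKM, with Eif1a higher by 2.12 and Eif2b3 lower by 1.93.

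Oocyte genes were lower more often than higher, and most stood above their wild-type 2-cell level. Of 44 oocyte identity and secreted-factor genes tested, 16 were lower, 9 higher and 19 did not pass, with a median of -0.42. After median-of-ratios scaling 20 were lower and 1 higher. Against wild-type 2-cell embryos, 31 of 45 were higher in the knockout and 5 lower. H1foo, the oocyte linker histone, stood at 1191, 1330 and 1332 FPKM in PN5, 198, 434 and 272 FPKM in knockout 2-cell and 23.8, 29.5 and 26.6 FPKM in wild-type 2-cell embryos. Its levels separated without overlap in that order. Oas1d fell from 2126, 2420 and 2810 to 183, 231 and 342 FPKM, Oas1e from 431, 516 and 492 to 75.7, 148 and 95.3 FPKM and Oog4 from 58.1, 37.7 and 35.3 to 3.33, 5.31 and 4.4 FPKM. Gdf9, a growth factor of the oocyte, had means of 788, 198 and 52.2 FPKM in wild-type PN5, knockout 2-cell and wild-type 2-cell embryos. The egg genes Oosp1, Tcl1, Zp2, Oog1, Oog3 and Uchl1 were among 10 at the PN5 level that were lower in wild-type 2-cell embryos. Tcl1, an Akt cofactor, had means of 1906, 1923 and 468 FPKM. Tcl1b2, Tcl1b3 and Tcl1b4 were above both groups, and Tcl1b3 had means of 1650, 3392 and 1214 FPKM. Rfpl4b, listed among the oocyte genes, had no PN5 signal, as given above.

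Most genes of maternal message storage and clearance did not pass the test. Of 36 genes tested, 8 were lower, 3 higher and 25 did not pass. Without wild-type PN5 replicate 1, 17 were lower and 3 higher. Dazl, an RNA-binding translation factor, fell from 261, 237 and 213 to 33.4, 53.5 and 55.1 FPKM, beside 37.7, 49.3 and 56.5 FPKM in wild-type 2-cell embryos. Tob1, a partner of the CCR4-NOT deadenylase, rose from 0.0783, 0.238 and 0.368 to 10.4, 5.83 and 7.71 FPKM. Zfp36l2 and Ybx2 rose by 1.51 and 1.5, but Ybx2 did not pass as TPM. Btg4, which brings CCR4-NOT to maternal messages, was at the PN5 level, with means of 3489, 3892 and 1217 FPKM. Of 9 subcortical maternal complex genes, 3 were lower and 0 higher, and 6 were lower after median-of-ratios scaling and 7 without wild-type PN5 replicate 1. At an unadjusted p under 0.05, 0 were higher and 4 lower (limma). In the 9-library fit, 5 of the 9 were above wild-type 2-cell embryos and 0 below. Tle6 stood at 10.4, 23.3 and 41.6 FPKM in PN5 and 5.95, 3.61 and 5.04 FPKM in knockout 2-cell embryos, and Padi6 at 53.6, 101 and 181 and 32.4, 32 and 35.7 FPKM. In both genes PN5 replicate 1 was nearest to the knockout values. Wild-type 2-cell means of Tle6 and Padi6 were 5.44 and 36.6 FPKM. Nlrp4f fell by 0.61 (adjusted p = 0.046, limma), a call lost without PN5 replicate 2 or 3 or any of the knockout libraries. Its means were 188 FPKM in PN5, 122 FPKM in knockout 2-cell and 29.9 FPKM in wild-type 2-cell embryos. The call of Padi6 was lost without knockout replicate 1 or 2.

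Of 10 DNA methylation and imprint protection genes tested, 5 were lower and 1 higher (6 and 2 without wild-type PN5 replicate 1). Dnmt1, the maintenance methyltransferase, fell from 15.6, 33.7 and 34.7 to 1.79, 3.94 and 4.19 FPKM, with 4.37, 4.86 and 2.25 FPKM in wild-type 2-cell embryos. PN5 values of Dnmt1 lay above all others, while knockout and wild-type 2-cell values overlapped, and the difference from PN5 was -2.72 (SE 0.38, limma, adjusted p = 0.00078). Uhrf1, which guides Dnmt1 to replicated DNA, stood at 12.5, 23.1 and 33.8 FPKM in PN5 and 6.29, 11.5 and 8.35 FPKM in knockout 2-cell embryos. Wild-type 2-cell embryos had 3.3, 5.11 and 3.23 FPKM of it. The call of Uhrf1 against PN5 (adjusted p = 0.029, limma) was lost without PN5 replicate 2 or 3 or knockout replicate 1 or 3. The histone methyltransferase Setdb1 fell by 1.22, also lost without PN5 replicate 2. Dnmt3l, a cofactor of the de novo enzymes, rose from 2.55, 6.24 and 11.7 to 17.9, 17.6 and 20.6 FPKM, a call lost as TPM, without PN5 replicate 2 and without any of the knockout libraries. Of 3 linker histones tested, H1foo was lower and the other two did not pass, while H1f0 was also lower without wild-type PN5 replicate 1, for 2 in all.

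Cell cycle genes split by direction. Of 38 tested, 9 were higher and 9 lower (23.7% each), and without wild-type PN5 replicate 1 the counts were 9 and 19. After median-of-ratios scaling they were 8 and 17, and as TPM 3 and 12. Cdc25c, the phosphatase that opens mitosis, rose from 0.396, 0.186 and 0.0267 to 10.8, 4.73 and 9.84 FPKM, below 33.9, 32.7 and 31 FPKM in wild-type 2-cell embryos. Mcm4, of the replicative helicase, fell from 37.7, 65.4 and 77.2 to 6.5, 6.07 and 12.2 FPKM, and wild-type 2-cell embryos had 30.8, 23.3 and 15.4 FPKM. All knockout values of Mcm4 were below both wild-type groups. Of 16 p53 target and apoptosis genes, 5 were higher and 3 lower (31.25% and 18.75%), near the 29.2% and 12.7% of all genes tested. Cdkn1a, the p21 cell cycle inhibitor, rose from 0.136, 0.0329 and 0.0849 to 1.58, 1.69 and 2.21 FPKM, with 10.7, 10.7 and 6.61 FPKM in wild-type 2-cell embryos. Gadd45b stood at 11.4, 8.09 and 11.9 FPKM and Gadd45g at 7.65, 6.37 and 9.63 FPKM in knockout 2-cell libraries, beside 33.8 and 15.6 FPKM as wild-type 2-cell means. Mcl1, an anti-apoptotic BCL2 relative, rose by 1.99.

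**Figure D5:**
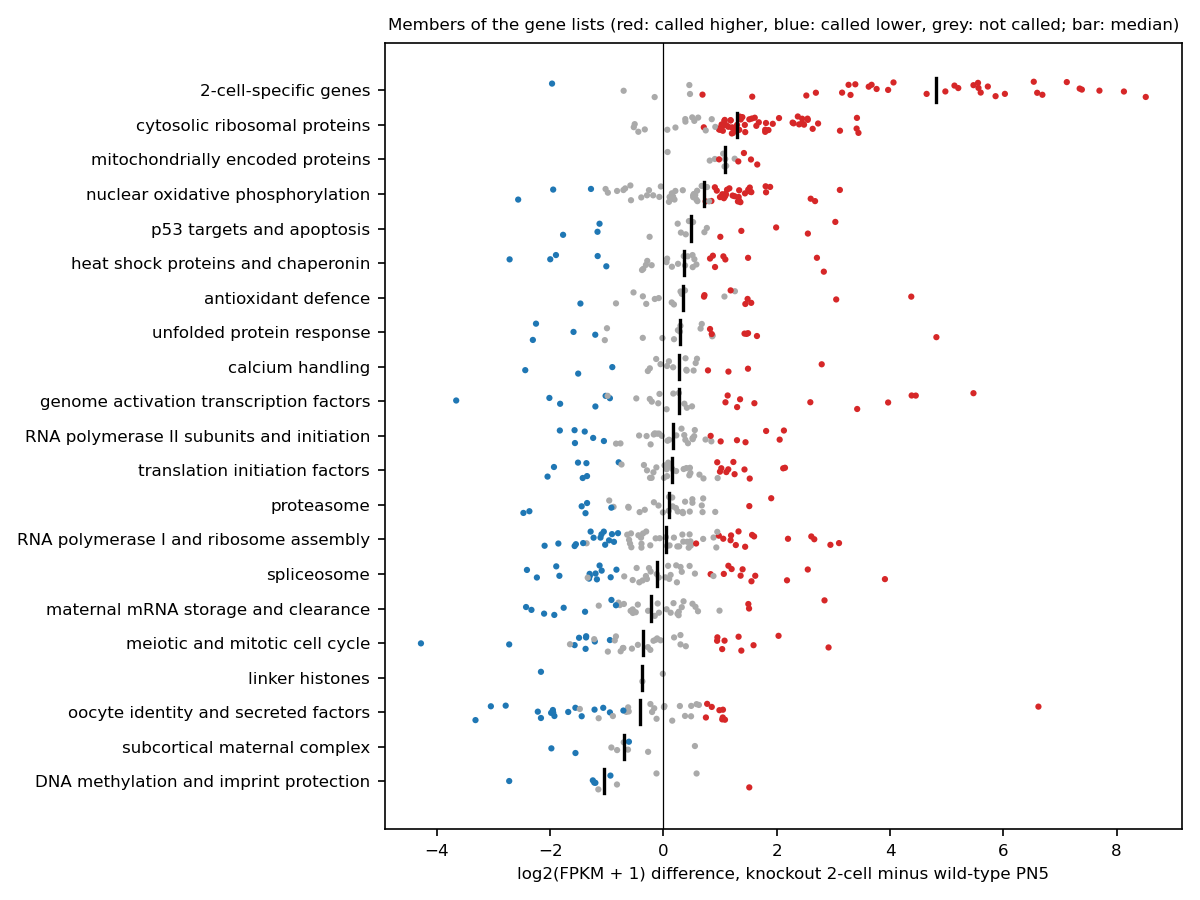
Difference between knockout 2-cell embryos and wild-type PN5 zygotes (log2(FPKM + 1), 3 libraries per group) for every tested member of 21 gene lists, ordered by the median, which the bar marks. The 2-cell-specific genes (median 4.81) and ribosomal protein genes (1.29) lie to the right, while most other lists hold members on both sides of 0.

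Energy genes were higher more often than lower. Of 64 nuclear genes of oxidative phosphorylation, 30 were higher and 3 lower, with a median of 0.71, and 39 of 70 were below wild-type 2-cell embryos. With the length trend removed, 17 were higher and 10 lower, and without wild-type PN5 replicate 1, 36 and 5. Ndufs8, of complex I, stood at 1.15, 0.967 and 0.748 FPKM in PN5, 11.2, 10.8 and 10.5 FPKM in knockout 2-cell and 41, 29.2 and 25.9 FPKM in wild-type 2-cell libraries. Atp5o, of ATP synthase, stood at 0.823, 0.73 and 0.43 FPKM in PN5, 7.58, 9.12 and 12.6 FPKM in knockout 2-cell and 37, 21.9 and 34.1 FPKM in wild-type 2-cell embryos. The groups of both genes did not overlap. Wild-type GV oocyte means of Ndufs8 and Atp5o were 20.9 and 66.2 FPKM, above the knockout 2-cell values. The annotation holds 2 gene models with the symbol Atp5o, and the values are of the model on chromosome 16. Ndufb11 rose by 1.80 and Uqcrc2, of complex III, fell by 2.56. Of 13 proteins encoded in mitochondrial DNA, 5 were higher as deposited, 0 after median-of-ratios scaling (2 at an unadjusted p under 0.05, limma) and 12 without wild-type PN5 replicate 1. The complex I gene mt-Nd2 stood at 5117, 2376 and 1552 FPKM in PN5, with replicate 1 the highest, and at 8582, 8322 and 8295 FPKM in knockout 2-cell embryos. The members mt-Nd1, mt-Nd4 and mt-Nd4l had the same order of PN5 replicates. Against wild-type 2-cell embryos, 0 of 13 were called (0 at an unadjusted p under 0.05, limma).

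Stress and protein quality genes had members in both directions. Of 23 unfolded protein response genes, 7 were higher and 4 lower (30.4% and 17.4%). These shares were near the 29.2% and 12.7% of all genes tested, so the counts do not set this list apart. Dnajb9, a chaperone cofactor of the endoplasmic reticulum, rose from 2.86, 4.74 and 2.14 to 137, 78.5 and 142 FPKM, beside 312, 264 and 273 FPKM in wild-type 2-cell embryos. Ern1, the IRE1 sensor, fell from 15.9, 20.8 and 27.1 to 2.77, 3.52 and 4.02 FPKM. Trib3, a pseudokinase, was listed at 0 in PN5 and stood at 2.77, 1.26 and 2.65 FPKM in knockout 2-cell embryos, and Dnajc3 fell by 2.25. Of 22 antioxidant genes, 8 were higher and 1 lower (6 and 2 after median-of-ratios scaling). Prdx4, a peroxiredoxin of the endoplasmic reticulum, stood at 22.9, 20.6 and 31.5 FPKM in knockout 2-cell embryos, against 0.873, 0 and 0 FPKM in PN5 and 111, 109 and 155 FPKM in wild-type 2-cell embryos. Hmox1, the haem oxygenase, rose by 3.05 and Gpx4 by 1.55. Prdx2 was above both wild-type groups, at 243, 191 and 156 FPKM in PN5, 616, 488 and 495 FPKM in knockout 2-cell and 323, 329 and 326 FPKM in wild-type 2-cell embryos. Of 29 heat shock and chaperonin genes, 8 were higher and 5 lower (5 and 5 after median-of-ratios scaling). As deposited these were 27.6% and 17.2%, again near the shares of all genes tested. Hsp90aa1 fell from 174, 273 and 141 to 22.4, 29.8 and 32.2 FPKM and Cct8 by 2.00, while Hspa2 rose by 2.71 and Cct6a by 2.83. Cct8 and Cct6a encode subunits of the same chaperonin, but the Cct6a entry used here is annotated as a processed transcript and not as protein coding.

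Of 33 proteasome genes, 2 were higher and 6 lower (6.06% and 18.2%). In the 9-library fit, 21 of 34 were below wild-type 2-cell embryos and 2 above. Psma2 fell from 235, 179 and 124 to 25.1, 35 and 32.2 FPKM and Psma7 by 1.37. Psmb5, a catalytic subunit, rose from 2.12, 1.64 and 2.95 to 9.9, 9.79 and 13.5 FPKM, and Psma3 rose by 1.52. Means of Psmb5 were 50.3 FPKM in wild-type 2-cell embryos and 48.8 FPKM in wild-type GV oocytes. Of 20 calcium handling genes, 4 were higher and 3 lower (20% and 15%). With 29.2% and 12.7% of all genes tested beside them, these counts do not set the list apart. The calmodulin gene Calm2 rose from 50.9, 28.1 and 19.4 to 254, 196 and 204 FPKM, with 696, 622 and 709 FPKM in wild-type 2-cell embryos, and Calm3 rose by 1.49. Atp2b1, a calcium pump of the plasma membrane, fell by 1.5. Itpr2, given above, was the calcium gene with the largest fall on this list.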

How the data were processed

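The authors deposited FPKM values of every gene for each library. Per the submitters' processing notes, StringTie and GRCm38 were used; the aligner, versions and annotation are not given in the sources used here. Each table held 55487 genes, of which 55227 matched GENCODE M21 and 260 had no symbol. In 34257 genes with 1 transcript, 98.8 to 99.2% of low values were whole multiples of 1 fragment (tolerance 0.02), which gave 7.65 to 12.3 M fragments per library, and 1 fragment in 1 kb was worth 0.0895 to 0.128 FPKM in the 6 libraries. The values of multi-transcript genes could not be turned back into whole fragments, and a count model was therefore not used. No 2 libraries held identical values (0 pairs).

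Tests were run, for genes reaching 1 FPKM in 3 or more libraries of a fit, on log2(FPKM + 1) with limma 3.58.1 in R 4.3.3 (intensity trend, robust), with Benjamini-Hochberg adjustment over all genes tested and a threshold of 0.05. The direct fit held 6 libraries, and a fit of 9 added wild-type 2-cell embryos. Tables were read with the R package data.table (1.17.8), pandas 2.3.3 and numpy 2.4.6 in Python 3.11.15, and figures drawn with matplotlib 3.10.9. The procedure was tested on simulated data. The comparison and the gene lists were chosen with earlier results of these data known. Named genes were Nlrp14, the 12 largest called differences without overlap in each direction, 8 genes per class (predicted genes with Gm, BC, AA and like names, Rik genes, pseudogenes and genes with no symbol left out of both) and the 4 members of each list with the smallest p, with at least 5 FPKM in the higher group for the first 2 sets. Other list members were named after their values were seen. Alternatives were median-of-ratios scaling, TPM, removal of length and GC trends, a pseudocount of 0.1, other filters, array weights, all 24 libraries, a replicate block, and leaving out each library.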

Additional observations from a re-analysis of the deposited data

How the results depend on the processing

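Of the 131 named differences that passed the test, 0 changed sign under any alternative, while 11 of the 19 tested that did not pass changed sign under at least 1. Most of these genes were named for large differences or small p, so a stable sign was close to fixed by the choice. It does not speak for the other called genes. Calls were less stable than signs, and with no filter 8 named genes lost theirs, the most under any alternative. The balance between classes was less stable: genes above both outnumbered those below both as deposited (440 to 305) but not as TPM (217 to 301), with a pseudocount of 0.1 (313 to 330) or with array weights (786 to 831). The cause of each change below was not tested. Median-of-ratios scaling gave 198 genes between and below PN5. TPM gave 673 and 357 at the PN5 level (wild-type 2-cell higher and lower). With the length trend removed, genes between numbered 641 and 346 (above and below PN5), those at the PN5 level and lower in wild type 1269, and lower genes 2221. With the GC trend removed, chosen after seeing the data, these were 611, 323, 1203 and 2231. At the PN5 level, where 1823 genes were higher and 553 lower in wild-type 2-cell embryos, a pseudocount of 0.1 gave 328 and 349, which turned the balance. With no filter, between were 783 and 42, above both 279, below both 153, and at the PN5 level with wild type higher 3133. A mean of at least 5 FPKM gave 362 and 367 there, again turned, 1562 higher genes and 1226 activation genes higher, with fewer genes tested. Array weights, which gave a convergence warning, gave 2245 and 313 between and 2880 lower genes. Fitting all 24 libraries gave 2478 and 286 between, 904 above both, 681 below both and 834 at the PN5 level and lower in wild type. A list definition of 4-fold left 414 cleared genes lower, from a shorter list, and an interval bound of 1.5-fold gave 259 and 62 at the PN5 level.

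Leaving out each library in turn gave 2658 to 3488 higher genes, 881 to 2106 lower genes, 1822 to 2245 activation genes higher, 571 to 1059 cleared genes lower, 835 to 1274 and 41 to 157 between, 242 to 501 above both, 161 to 480 below both, and 1271 to 1844 and 325 to 562 at the PN5 level. Same-numbered deviations correlated at 0.08, 0.02 and 0.24, and different-numbered ones at -0.22 to 0.13. These few values cannot decide whether replicate numbers pair the libraries. With the replicate block, 3295 genes were higher and 1498 lower, 2171 activation genes higher and 847 cleared genes lower, and of the named genes Nlrp4f lost its call (adjusted p = 0.053, limma).

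One fragment in 1 kb was worth 0.0895 to 0.128 FPKM in the 6 libraries, so values well below 1 FPKM rest on few fragments, and a difference between such values was often not detectable at this depth.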
